A study of Homo sapiens with 6 samples.

Results

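The genes described here are the autophagy machinery and its cargo receptors: 38 genes chosen by name from the 54261 symbols of a count table, and all 38 symbols were in it. The table holds RNA sequencing counts from the human cell line T24, which was derived from a bladder carcinoma. Of the 6 libraries, 3 came from cells with the control lentivirus HBLV-ZsGreen-PURO and 3 from cells with HBLV-h-MTHFD2shRNA2-ZsGreen-PURO, which encodes hairpin 2 against MTHFD2, an enzyme of mitochondrial folate metabolism. Both groups thus held a ZsGreen reporter and a puromycin resistance gene, and both were puromycin-selected pools of infected cells, so each group stands for 1 vector in 1 cell line. The design text speaks of a knockout, whereas the sample labels name a hairpin, and MTHFD2 RNA remained at 0.175 of its control level, so the word knockdown is used here. The labels number the replicates 1 to 3 without naming separate cultures. The p-values therefore reflect only how these libraries scatter, and that scatter may be technical.

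Autophagy is the delivery of cytoplasm, proteins and organelles to lysosomes inside a double membrane, the autophagosome. The ULK1 kinase complex starts it, a class III phosphoinositide 3-kinase complex marks the membrane, ATG9 and ATG2 proteins supply lipid, and a conjugation system attaches small ubiquitin-like ATG8 proteins (the LC3 and GABARAP groups) to the membrane. Cargo receptors such as p62, the product of SQSTM1, bind ubiquitinated cargo and ATG8 proteins at once. TFEB, TFE3 and MITF are related transcription factors that raise lysosomal and autophagy genes when the kinase mTORC1 is inactive.

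After knockdown, RNA of the ATG8 gene GABARAPL1 about doubled (1.98-fold), and RNA of the transcription factor MITF rose 1.73-fold. RB1CC1, the scaffold of the ULK1 complex, and NBR1, a cargo receptor, rose by smaller amounts (1.32-fold and 1.29-fold). SQSTM1, the most abundant cargo receptor gene, fell to 0.719 of its control level and TFE3 to 0.748. These 6 genes were the ones past the test, an edgeR quasi-likelihood adjusted p under 0.05, among the 37 members with enough counts to test. That is 16.2% of them, against 17.3% of all 13896 genes tested, so the members changed about as often as genes at large. By direction, 4 members rose, where 9.71% of all genes did, and 2 fell, where 7.58% did. With trends on GC content and transcript length removed, an alternative added after seeing the data, 6 members rose and 7 fell, while 27% of all genes passed in that fit. The median log2 fold change was 0.03 over the 37 members and 0.01 over all genes.

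The 250 bases before the start sites of the members that changed are shown so that the promoters of genes moving in opposite directions can be read side by side. They come from RefSeq on GRCh38.p14, 5′ to 3′ on the gene's strand, for the 5 of the 6 changed genes that are printed here. Capitals mark the GC box GGGCGG, the usual binding letters of SP factors, and the CCAAT box CCAAT, each on either strand.
GABARAPL1 (chr12:10212627-10212876, plus strand): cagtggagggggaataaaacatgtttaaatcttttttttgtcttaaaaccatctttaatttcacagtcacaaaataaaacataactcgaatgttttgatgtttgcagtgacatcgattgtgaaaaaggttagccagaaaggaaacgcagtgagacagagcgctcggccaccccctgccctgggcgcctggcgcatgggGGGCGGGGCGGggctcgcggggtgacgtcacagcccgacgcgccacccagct
MITF (chr3:69739214-69739463, plus strand): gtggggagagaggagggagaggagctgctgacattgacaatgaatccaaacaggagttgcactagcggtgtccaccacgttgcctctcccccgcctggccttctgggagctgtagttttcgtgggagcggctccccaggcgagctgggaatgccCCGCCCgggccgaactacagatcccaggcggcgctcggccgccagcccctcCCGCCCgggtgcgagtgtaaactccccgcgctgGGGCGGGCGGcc
NBR1 (chr17:43170964-43171213, plus strand): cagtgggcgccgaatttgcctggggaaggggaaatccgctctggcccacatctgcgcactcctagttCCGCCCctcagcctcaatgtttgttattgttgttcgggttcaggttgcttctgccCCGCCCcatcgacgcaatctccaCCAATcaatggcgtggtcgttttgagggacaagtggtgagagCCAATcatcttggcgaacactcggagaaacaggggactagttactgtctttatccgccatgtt
SQSTM1 (chr5:179820655-179820904, plus strand): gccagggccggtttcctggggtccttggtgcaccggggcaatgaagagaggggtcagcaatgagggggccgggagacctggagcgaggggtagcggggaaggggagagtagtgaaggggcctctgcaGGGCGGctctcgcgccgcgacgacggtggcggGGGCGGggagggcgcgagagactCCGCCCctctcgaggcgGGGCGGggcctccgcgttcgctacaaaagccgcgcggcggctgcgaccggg
TFE3 (chrX:49043358-49043607, minus strand): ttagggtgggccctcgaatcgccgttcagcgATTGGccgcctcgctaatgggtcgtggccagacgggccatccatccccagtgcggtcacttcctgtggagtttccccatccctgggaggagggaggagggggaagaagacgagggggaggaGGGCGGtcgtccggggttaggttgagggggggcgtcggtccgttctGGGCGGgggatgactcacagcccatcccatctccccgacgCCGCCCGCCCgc

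GC boxes stood in all 5 of these stretches, between 2 and 4 each, in genes that rose and in genes that fell. A CCAAT box stood in 2 of them, NBR1 (2 copies) and TFE3 (1 copy). MITF has 3 start sites and SQSTM1 3 and NBR1 2 in the RefSeq table. The stretch shown is the one nearest to most GENCODE release 29 transcript starts, and gene counts do not tell which start was used. For TFE3 the RefSeq start had 0 GENCODE starts within 50 bases. The GENCODE gene begins inside the TFE3 stretch, at base 49043486, so the GC boxes marked there lie within that gene and not before it.

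RefSeq windows reaching from 250 bases before a start to 50 after it were found for 34 members, in 46 windows. A GC box lay in 32 of the 46 windows (69.6%), against 45% of the 35116 windows in the table, which also hold noncoding genes. The CCAAT box lay in 13 of 46 (28.3%; 34.6% of all windows). The letters TCACGTGA of the CLEAR element, to which TFEB, TFE3 and MITF bind, were searched on both strands and were found in 1 window (0.98% of all windows hold them). That window belongs to ATG3, the enzyme that passes ATG8 proteins to lipid, and the site is shown with the element in capitals, at bases 5 to 12 after the start.
ATG3 (chr3:112561940-112561969, minus strand): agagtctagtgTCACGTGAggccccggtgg

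The shorter E-box CACGTG, which every CLEAR element contains, occurred in 2 windows, ATG3 and ATG14 (7.26% of all). The FOXO letters GTAAACA occurred in 1, CALCOCO2 (3.42%), and the antioxidant response letters TGACNNNGC in 3, ATG101, CALCOCO2 and MAP1LC3B (13.3%). The amino acid response letters TGATGNAAN occurred in 0 windows of members (3.61%). A match of letters is a description, and a missing match says only that the letters are not in that window.

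The library totals ran from 17801990 to 19978392 counts, and a count of 3, the upper limit that a count of 0 allows, equals 0.149 to 0.171 CPM (counts scaled to a common library size, as edgeR's cpm gives them with TMM). Such limits cover counting error only. MTHFD2 itself fell in every knockdown library, from 185 ± 3.18 to 32.3 ± 5.11 CPM (SD, n = 3 each). Keratin genes KRT7, KRT8 and KRT18 made up most of the summed level of the 15 urothelial and epithelial markers. That sum was 2108 to 2516 CPM in the controls and 1003 to 1321 CPM after knockdown, while KRT20 and UPK3A were at 0 in all 6 libraries. The markers did not all fall. Of the 6 tested, 2 passed edgeR's test as lower and 1 as higher, where 7.58% and 9.71% of all genes did. Their log2 fold changes ran from -1.27 to 1.72. The 10 fibroblast markers summed to 6.66 to 8.05 CPM in the controls and to 40.3, 10.7 and 36.3 CPM in knockdown replicates 1, 2 and 3, with none at 0 in all libraries. Leukocyte markers (10 genes, 2 at 0 throughout) summed to 2.6 to 3.64 CPM in the controls and 1.74 to 3.78 CPM after knockdown, and 8 endothelial markers to 17.8 to 21.3 and 16.5 to 21.6 CPM. The part of the fibroblast markers in the results was not tested, and values with knockdown replicate 2 alone, the knockdown library lowest in them, are given beside the members that changed. That fit assumes that a lone library varies like the controls. Knockdown replicates differed more among themselves than controls did (chi-square divided by its degrees of freedom, 18.5 to 34.7 against 2.63 to 14.9). Only log2 fold changes are therefore given from that fit. In bulk RNA, more cells with a transcript and more transcript per cell cannot be told apart.

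**Figure D1:**
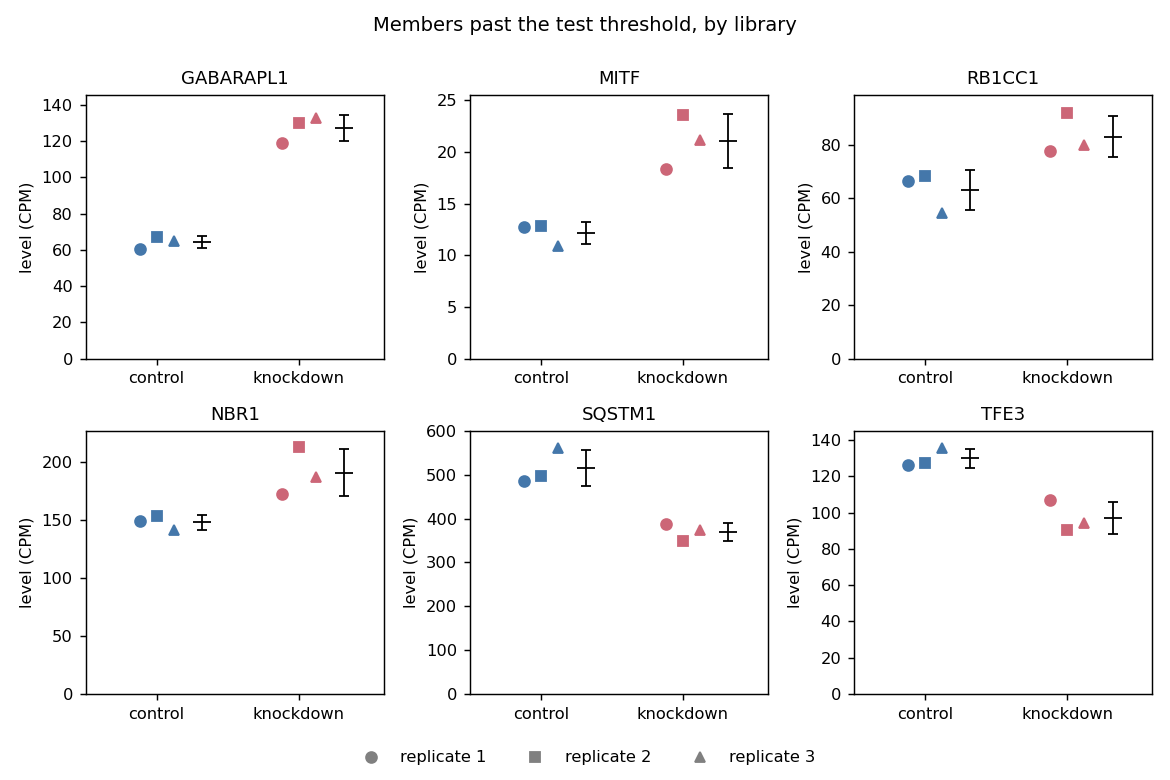
Level in CPM (vertical axes, from 0) of the 6 members past the threshold in each control (blue) and knockdown (red) library, with marker shape for the replicate number and a black bar for mean ± SD (n = 3). GABARAPL1, MITF, RB1CC1 and NBR1 lie higher in all 3 knockdown libraries than in any control, and SQSTM1 and TFE3 lie lower.

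In the plot of levels by library, the groups do not overlap for any of the 6 genes. Over all tested members the 3 knockdown libraries lay wholly above the controls for 7 and wholly below for 11, together 18 of 37, where 39.1% of all genes did so.

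In the initiation complex ULK1, the kinase, gave 937, 1003 and 1075 counts in the controls and 1180, 945 and 752 after knockdown, so its groups overlapped. Its homologue ULK2 was listed at 0 counts in 5 libraries and 1 count in control replicate 3, and was not tested. How reads were assigned to genes is unknown, so such a low count is not a statement on expression. RB1CC1 (also called FIP200) gave 1163, 1315 and 1029 counts in the controls against 1561, 1825 and 1489 after knockdown. Control replicate 3 was the lowest and knockdown replicate 2 the highest. Mean levels were 63.0 ± 7.38 and 83.0 ± 7.74 CPM. On the log2 scale the gene rose by 0.40 with an SE of 0.12 (edgeR adjusted p = 0.0388). It no longer passed when control replicate 1, 2 or 3 was left out (edgeR adjusted p = 0.0978, 0.0582 and 0.166) or when knockdown replicate 2 was (0.109). The longest RB1CC1 transcript has 37.6% GC, and once trends on GC content and length were removed its log2 fold change was 0.21 (edgeR adjusted p = 0.0355). With knockdown replicate 2 alone it was 0.54.

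ATG101, which stabilises ATG13 in the complex, lay lower in every knockdown library than in any control in CPM, with means of 81.7 in the controls and 64.4 after knockdown. It did not pass (log2 fold change -0.34 ± 0.15, edgeR adjusted p = 0.135). With knockdown replicate 2 alone the value was -0.70 (edgeR adjusted p = 0.011), with no filter on low counts -0.35 (0.0415), and without GC content and length trends -0.15 (0.195). Its counts were 1272, 1467 and 1820 in the controls and 1449, 1004 and 1321 after knockdown. ATG13 itself was at 119 ± 5.17 and 109 ± 4.39 CPM, a log2 fold change of -0.13 ± 0.10 that did not pass either.

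None of the 4 members of the PI3K complex passed edgeR's test, and 0 had an unadjusted p under 0.05 or a DESeq2 call, where 33.4% and 19.4% of all genes did. BECN1, the scaffold of the complex, had the largest value, -0.20 ± 0.10 on the log2 scale, with its 3 knockdown libraries below the controls (98.9 ± 4.93 and 86.0 ± 3.16 CPM). Once GC content and length trends were removed, BECN1 was at -0.32 and passed (edgeR adjusted p = 0.0232). ATG14, which directs the complex to new autophagosomes, was at 0.09 ± 0.13, UVRAG, its counterpart on endosomes, at -0.07 ± 0.11 and AMBRA1, a regulator of the complex, at 0.00 ± 0.12. Of the 5 genes that supply membrane or read its lipid mark, 0 passed edgeR or DESeq2, and 1 had an unadjusted p under 0.05. That gene was ATG2B, a lipid channel, with 465, 507 and 398 counts in the controls and 631, 800 and 481 after knockdown. Knockdown replicate 3 overlapped the controls, and the log2 fold change was 0.40 ± 0.16 (edgeR adjusted p = 0.109). ATG2B passed with no filter on low counts (0.39, edgeR adjusted p = 0.0347) and without knockdown replicate 3 (0.54, 0.0335). It stood at 0.70 with knockdown replicate 2 alone, 0.21 without knockdown replicate 2 and 0.16 without GC content and length trends. Its paralogue ATG2A was at -0.02 ± 0.16 and the scramblase gene ATG9A at 0.04 ± 0.10. WIPI1 and WIPI2, which bind the lipid that the PI3K complex makes, were at 0.22 ± 0.12 and 0.05 ± 0.10, and the knockdown libraries of WIPI1 all lay above the controls. WIPI1 passed without GC content and length trends, at 0.31 (edgeR adjusted p = 0.0265).

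Not one of the 11 genes of the conjugation system passed edgeR or DESeq2, where 17.3% and 19.4% of all genes did. The knockdown libraries lay wholly below the controls for 4 and wholly above for 0, where 39.1% of all genes had no overlap. At an unadjusted edgeR p under 0.05 there were 3 of 11, where 33.4% of all genes passed. Those were ATG4B, the main protease that primes ATG8 proteins (-0.27 ± 0.11), ATG5 (-0.27 ± 0.12) and ATG16L2 (0.38 ± 0.17). ATG5 and ATG12, which are joined to each other as the ligase for ATG8 proteins, both had knockdown libraries below the controls, at 60.5 ± 3.00 against 50.2 ± 6.25 CPM and 85.0 ± 2.16 against 79.9 ± 2.42 CPM. The activating enzyme gene ATG7 also lay below in all 3 knockdown libraries, at 44.8 ± 0.762 against 39.2 ± 1.21 CPM (log2 fold change -0.19 ± 0.10). ATG3 and ATG10, which transfer ATG8 proteins and ATG12, were at -0.13 ± 0.10 and 0.03 ± 0.12, with overlapping groups. The other proteases of the ATG4 family overlapped too, with ATG4A at 0.03 ± 0.13, ATG4C at 0.19 ± 0.12 and ATG4D at -0.20 ± 0.14. The 11 log2 fold changes ran from -0.27 to 0.40, with a median of -0.09. Without GC content and length trends ATG5 (-0.34, edgeR adjusted p = 0.0175), ATG12 (-0.22, 0.0328) and ATG16L2 (0.47, 0.0235) passed. ATG5 (-0.37, 0.0383) and ATG16L2 (0.57, 0.0164) also passed without knockdown replicate 3, and ATG4B (-0.36, 0.0434) without knockdown replicate 1. With knockdown replicate 2 alone ATG4B, ATG5 and ATG16L2 were at -0.37, -0.46 and 0.59.

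Among these enzymes ATG16L1, the partner of ATG5 and ATG12, had the fewest counts. It gave 32, 19 and 30 counts in the controls and 27, 55 and 31 after knockdown, a log2 fold change of 0.40 ± 0.34 with overlapping groups that stood at 0.03 without knockdown replicate 2. Per kilobase of exon it was listed at 0.243 ± 0.0713 RPKM in the controls, where ATG5 had 10.7 ± 0.531 and its paralogue ATG16L2 1.42 ± 0.0221. Its counts are low and uneven and the assignment of reads is unknown, so this value may not be its abundance. RPKM here is CPM divided by the summed exon length of all GENCODE transcripts of a gene, so it understates genes with many unused exons.

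**Figure D2:**
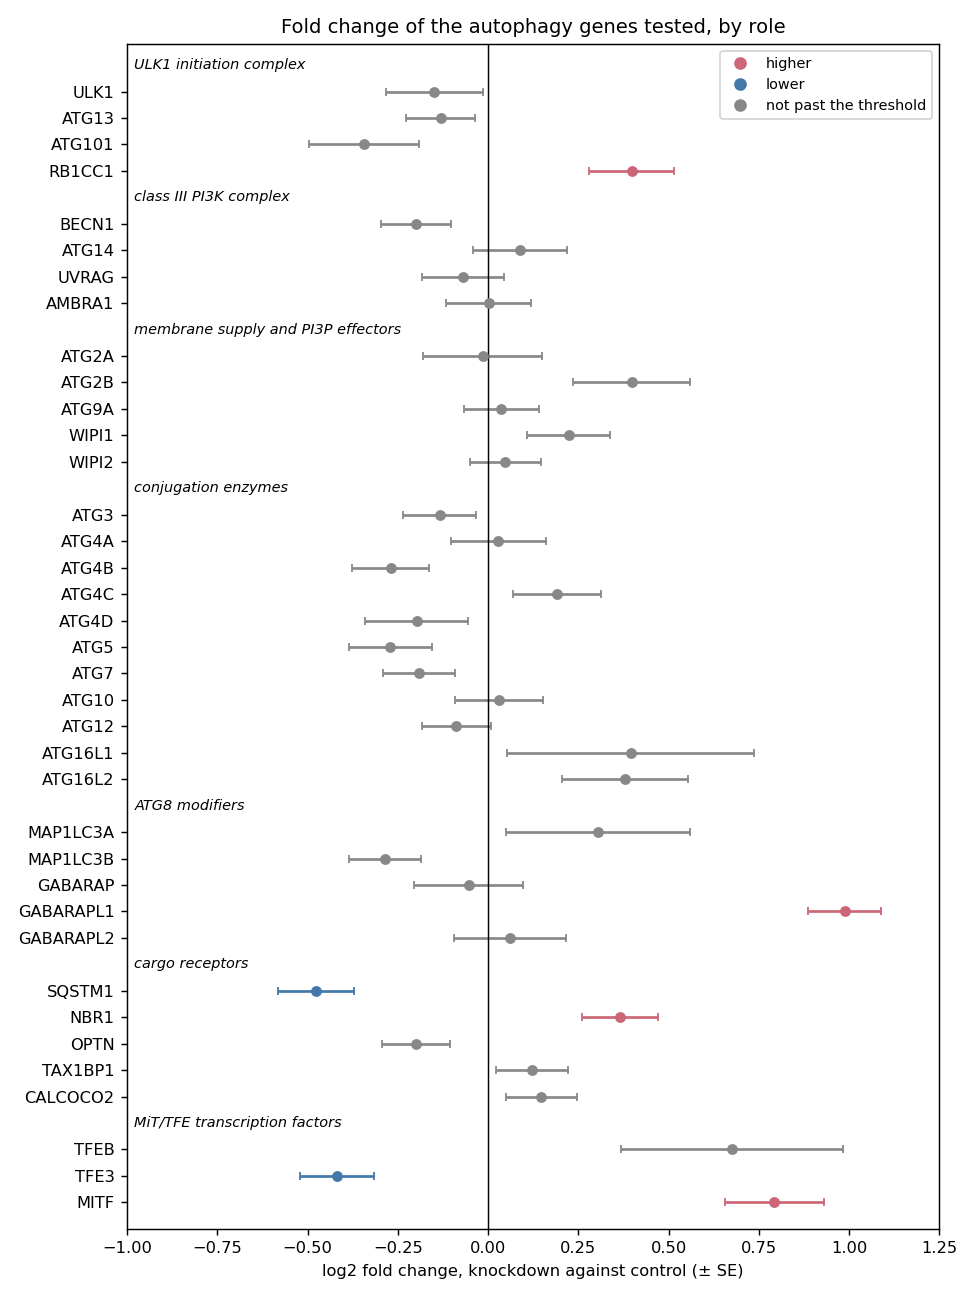
Log2 fold change of knockdown against control (horizontal axis, ± SE) for the 37 tested members, grouped by role, with red for genes past the threshold and higher, blue for lower and grey for the rest. The 6 coloured genes fall in 4 roles, and the 20 genes of the PI3K complex, membrane supply and conjugation are all grey.

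The ATG8 proteins coat the autophagosome and recruit receptors. GABARAPL1 (chromosome 12, 10212458 to 10223130, plus strand) gave 1063, 1295 and 1221 counts in the controls and 2395, 2585 and 2484 after knockdown. Each knockdown library stood well above every control. Mean levels were 64.2 ± 3.41 and 127 ± 7.40 CPM, and the log2 fold change was 0.99 ± 0.10 (edgeR adjusted p = 0.000201), the largest of any member. It stayed past the threshold whichever single library was left out, with log2 fold changes from 0.94 to 1.03. It was 1.01 with knockdown replicate 2 alone and 1.02 without GC content and length trends. Its near-identical copy GABARAPL3 was listed with 1 count over all 6 libraries, and how reads matching both genes were assigned is unknown.

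The other 4 ATG8 genes did not pass edgeR's test. MAP1LC3B, the LC3 gene most used as an autophagosome marker, gave 4094, 4556 and 4619 counts in the controls and 3763, 3677 and 4007 after knockdown. Its knockdown libraries all lay below the controls, at 238 ± 6.15 against 195 ± 16.4 CPM (log2 fold change -0.29 ± 0.10, edgeR adjusted p = 0.0671), and DESeq2 called it lower (adjusted p = 0.043). It also passed edgeR's test without GC content and length trends (-0.22, adjusted p = 0.0424), without knockdown replicate 3 (-0.36, 0.0237) and with knockdown replicate 2 alone (-0.37, 0.0256). The near-identical MAP1LC3B2 had 61 to 86 counts per library, and reads could be assigned to either. GABARAP gave 3181, 3645 and 4488 counts in the controls and 3725, 3203 and 4484 after knockdown, and GABARAPL2 1499, 1603 and 2044 against 1712, 1641 and 2268. In both genes replicate 3 was the highest library of each group, and the log2 fold changes were -0.05 ± 0.15 and 0.06 ± 0.16. MAP1LC3A was low, at 43 to 94 counts, with a log2 fold change of 0.30 ± 0.26.

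**Figure D3:**
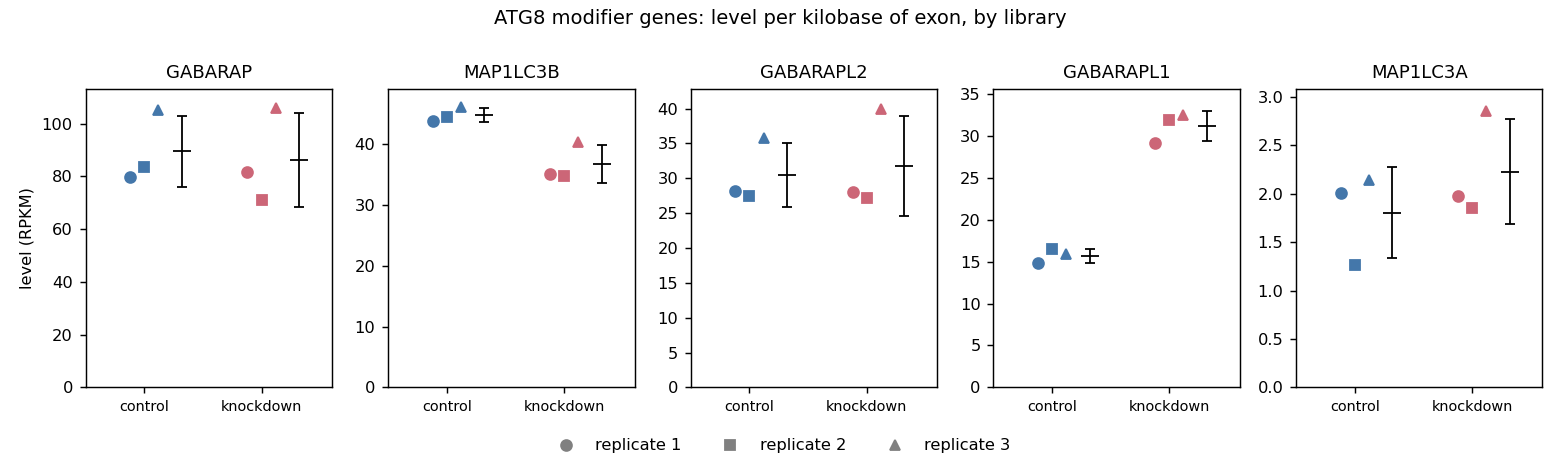
Level per kilobase of exon (RPKM, vertical axes from 0 with a scale of their own in each panel) of the 5 ATG8 genes in each control (blue) and knockdown (red) library, with mean ± SD (n = 3) as black bars. GABARAPL1 goes from 15.7 to 31.2 RPKM while the groups of GABARAP, the highest of the 5, overlap.

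Per length, GABARAP was the most abundant ATG8 gene in the controls (89.5 ± 13.6 RPKM), followed by MAP1LC3B (44.8 ± 1.16), GABARAPL2 (30.4 ± 4.61), GABARAPL1 (15.7 ± 0.834) and MAP1LC3A (1.80 ± 0.469). After knockdown GABARAPL1 stood at 31.2 ± 1.81 RPKM, next to GABARAPL2 at 31.8 ± 7.15, a difference smaller than their spread. GABARAP and MAP1LC3B (36.8 ± 3.09 RPKM) had the highest means after knockdown too, and the order of the 5 means was the same in both groups.

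Among the cargo receptors, SQSTM1 (chromosome 5, 179806398 to 179838078, plus strand) encodes p62, which is itself degraded by autophagy as protein. It gave 8515, 9566 and 10571 counts in the controls and 7804, 6904 and 6978 after knockdown. All 3 knockdown libraries were lower in CPM than any control, at 370 ± 20.3 against 514 ± 40.9 CPM. The log2 fold change was -0.48 ± 0.10 (edgeR adjusted p = 0.0111). Without control replicate 3, the highest library, it was -0.41 and the call was lost (edgeR adjusted p = 0.0516). With knockdown replicate 2 alone it was -0.57. Without GC content and length trends it was -0.34, past the threshold. SQSTM1 overlaps MGAT4B on the opposite strand, and no source says whether counting used strand, so some reads may belong to either gene. The same limit holds for other members with a gene on the opposite strand. Among them are MITF, MAP1LC3B, BECN1, ATG2B, ATG4B, ATG5, ATG12, ATG16L2, WIPI1 and OPTN.

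NBR1 (chromosome 17, 43170481 to 43211689, plus strand) encodes a receptor with the same domain order as p62 that works with it in gathering ubiquitinated cargo. Its counts went the other way, from 2621, 2943 and 2653 in the controls to 3460, 4214 and 3493 after knockdown. Every knockdown library was above every control, with knockdown replicate 2 the highest. Mean levels were 148 ± 6.21 and 190 ± 20.4 CPM, and the log2 fold change was 0.37 ± 0.11 (edgeR adjusted p = 0.0339). NBR1 no longer passed with control replicate 1, 2 or 3 left out (edgeR adjusted p = 0.119, 0.0822 and 0.131) or knockdown replicate 2 (0.114, log2 fold change 0.28). It was 0.52 with knockdown replicate 2 alone. Without GC content and length trends it was 0.26, past the threshold.

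The other 3 receptor genes did not pass the main test. OPTN, a receptor in the clearance of mitochondria and bacteria, had 158 ± 10.3 and 137 ± 0.533 CPM with no overlap (log2 fold change -0.20 ± 0.10, edgeR adjusted p = 0.163), and passed without GC content and length trends (-0.23, 0.03). CALCOCO2, which encodes NDP52, had 88.3 ± 0.897 and 97.8 ± 6.80 CPM, also without overlap (0.15 ± 0.10), and TAX1BP1 101 ± 3.66 and 109 ± 7.79 CPM with overlap (0.12 ± 0.10).

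Of the transcription factors, MITF (chromosome 3, 69739435 to 69968337, plus strand) gave 224, 246 and 205 counts in the controls and 370, 468 and 395 after knockdown. The knockdown libraries were all higher, and knockdown replicate 2 was the highest of them. That library also had the least fibroblast marker RNA of its group, and a link with MITF was not tested. Mean levels were 12.1 ± 1.09 and 21.0 ± 2.60 CPM, and the log2 fold change was 0.79 ± 0.14 (edgeR adjusted p = 0.0036). The call held when any single library was left out (log2 fold changes 0.70 to 0.88), and the value was 0.95 with knockdown replicate 2 alone. Without GC content and length trends it was smaller, at 0.65, and past the threshold (edgeR adjusted p = 0.00137).

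TFE3 (chromosome X, 49028726 to 49043486, minus strand) gave 2219, 2450 and 2560 counts in the controls and 2148, 1791 and 1761 after knockdown. All knockdown libraries were lower in CPM, at 97.0 ± 8.60 against 130 ± 5.23 CPM, with a log2 fold change of -0.42 ± 0.10 (edgeR adjusted p = 0.0174). Leaving out control replicate 1 or 3 ended the call (edgeR adjusted p = 0.0626 and 0.0733, log2 fold changes -0.45 and -0.39). It was -0.53 with knockdown replicate 2 alone. Without GC content and length trends it was smaller, at -0.29, and past the threshold (edgeR adjusted p = 0.00702).

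TFEB was near the low end of what could be measured. It gave 19, 17 and 18 counts in the controls and 29, 25 and 37 after knockdown, without overlap in CPM, and a log2 fold change of 0.68 ± 0.31 that did not pass (edgeR adjusted p = 0.146). Per length TFE3 was by far the highest of the 3 factors in both groups, at 30.3 ± 1.22 RPKM in the controls and 22.7 ± 2.01 after knockdown. MITF stood at 1.69 ± 0.152 and 2.93 ± 0.361 RPKM, and TFEB at 0.172 ± 0.0178 and 0.276 ± 0.0664 RPKM.

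Beyond the members, 98 further genes in 5 lists of autophagy-related functions were read from the same fit. Of the 89 tested, 8 rose and 11 fell, or 21.4%, against 17.3% of all genes, and their median log2 fold change was -0.0032.

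**Figure D4:**
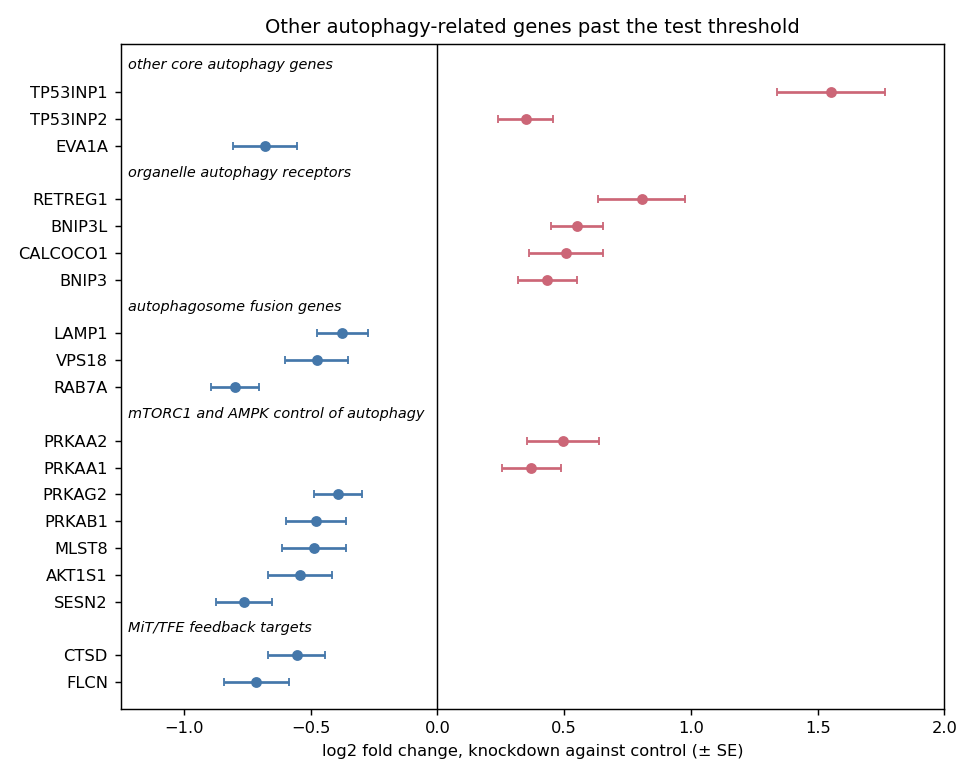
Log2 fold change of knockdown against control (horizontal axis, ± SE) for the 19 genes of the 5 further lists that passed the threshold, red for higher and blue for lower. Only genes past the threshold are drawn, 4 of 20 tested organelle receptors (all higher) and 3 of 16 tested fusion genes (all lower) among them. Of all genes tested, 9.71% were higher and 7.58% lower.

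Receptors that tie whole organelles to ATG8 proteins had 4 of 20 tested genes higher and 0 lower by edgeR, where 9.71% of all genes were higher and 7.58% lower. At an unadjusted p under 0.05, 8 were higher and 2 lower (17.7% and 15.7% of all genes), and DESeq2 called 6 higher and 1 lower (10.2% and 9.2% of all genes). BNIP3L, also called NIX, marks mitochondria for removal, and gave 1987, 2232 and 2135 counts in the controls and 3000, 3351 and 3430 after knockdown. Its log2 fold change was 0.55 ± 0.10 (edgeR adjusted p = 0.00539), and the call held without any single library. RETREG1, a receptor for endoplasmic reticulum listed under its older symbol FAM134B, rose by 0.81 ± 0.17 (edgeR adjusted p = 0.00923), from 149, 179 and 147 counts to 230, 328 and 314. BNIP3, the relative of BNIP3L, rose by 0.43 ± 0.12 (edgeR adjusted p = 0.0267) and the endoplasmic reticulum receptor CALCOCO1 by 0.51 ± 0.15 (edgeR adjusted p = 0.0334). BNIP3 no longer passed when control replicate 1, 2 or 3 was left out (edgeR adjusted p = 0.11, 0.0862 and 0.0667). CALCOCO1 passed in 1 of 6 such fits, the one without knockdown replicate 3, and in the other 5 its edgeR adjusted p was 0.0818 to 0.108.

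Of 18 tested genes in the list of other core factors, 2 rose and 1 fell. That is 16.7% called, near the 17.3% of all genes. TP53INP1, which binds ATG8 proteins and is a known p53 target, gave 90, 116 and 103 counts in the controls and 221, 404 and 327 after knockdown, a log2 fold change of 1.55 ± 0.21 (edgeR adjusted p = 0.00103). It was above the controls in all 3 knockdown libraries. EVA1A, an autophagy protein of endosomes and lysosomes, fell by 0.68 ± 0.13 on the log2 scale (edgeR adjusted p = 0.00488). TP53INP2 rose by 0.35 ± 0.11 (edgeR adjusted p = 0.0466), but passed in 0 of the 6 fits that each dropped 1 library (edgeR adjusted p from 0.0526 to 0.205). With knockdown replicate 2 alone TP53INP2 was at 0.28. PIK3C3, the catalytic subunit of the class III kinase, was at 0.32 ± 0.11 and did not pass (edgeR adjusted p = 0.0582), and at 0.07 without GC content and length trends. It is named here after its value was seen.

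Genes for fusion of autophagosomes with lysosomes had 3 of 16 tested members lower and 0 higher by edgeR. That is 18.8% called, near the 17.3% of all genes. DESeq2 also called 3 lower and 0 higher, and at an unadjusted p under 0.05 there were 4 lower and 2 higher, or 6 of 16 where 33.4% of all genes passed. RAB7A, the GTPase of late endosomes, gave 5231, 5813 and 5984 counts in the controls and 3637, 3310 and 3354 after knockdown, a log2 fold change of -0.80 ± 0.09 (edgeR adjusted p = 0.000476) that held without any single library. VPS18, a subunit of the HOPS tether, fell by 0.48 ± 0.13 (edgeR adjusted p = 0.0237) and LAMP1, a lysosomal membrane glycoprotein, by 0.38 ± 0.10 (edgeR adjusted p = 0.0252). VPS18 no longer passed after dropping control replicate 1, control replicate 3 or knockdown replicate 2 (edgeR adjusted p = 0.0836, 0.0825 and 0.06). LAMP1 no longer passed after dropping any 1 control, in order 1, 2 and 3, or knockdown replicate 2 (edgeR adjusted p = 0.0723, 0.0596, 0.109 and 0.0608).

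Among 28 tested genes through which mTORC1 and the energy sensor AMPK control the ULK1 kinase, 2 rose and 5 fell, where 9.71% and 7.58% of all genes did. SESN2, a leucine sensor that restrains mTORC1, was at 32.1 ± 1.82 CPM in the controls and 18.9 ± 0.279 CPM after knockdown, with a log2 fold change of -0.76 ± 0.11 (edgeR adjusted p = 0.00145), and held without any single library. Of mTORC1 itself, AKT1S1 (-0.54 ± 0.13, edgeR adjusted p = 0.0147) and MLST8 (-0.49 ± 0.13, edgeR adjusted p = 0.0232) fell. The call of AKT1S1 was lost without control replicate 3 (edgeR adjusted p = 0.0675). MLST8 no longer passed after dropping control replicate 1, control replicate 3 or knockdown replicate 2 (edgeR adjusted p = 0.0656, 0.103 and 0.0564), and its log2 fold change was -0.31 without GC content and length trends.

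The AMPK subunits past the threshold went both ways. PRKAA2, a catalytic subunit, rose by 0.49 ± 0.14 (edgeR adjusted p = 0.0343), and the other catalytic subunit PRKAA1 by 0.37 ± 0.12 (edgeR adjusted p = 0.0469). The regulatory subunits PRKAB1 and PRKAG2 fell by 0.48 ± 0.12 and 0.39 ± 0.09. The longest transcripts of the catalytic subunits have 35.2% and 35.3% GC, and both calls were lost without GC content and length trends, at log2 fold changes of 0.22 and 0.21 (edgeR adjusted p = 0.0908 and 0.0536). They were also lost without control replicate 1 (0.11 and 0.103), control replicate 3 (0.132 and 0.192) or knockdown replicate 2 (0.118 and 0.148), and that of PRKAA1 without control replicate 2 (0.0831). The calls of PRKAB1 and PRKAG2 each failed in 2 of 6 such fits: without control replicate 1 (edgeR adjusted p = 0.0602 and 0.0637), and without control replicate 3 for PRKAB1 (0.0842) or control replicate 2 for PRKAG2 (0.0747).

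Genes that TFEB, TFE3 and MITF are known to raise had 2 of 9 tested members lower and 0 higher by edgeR, the same 2 genes lower and 0 higher by DESeq2, and 4 lower and 1 higher at an unadjusted p under 0.05. Of all genes, 7.58% were lower and 9.71% higher by edgeR and 33.4% had an unadjusted p under 0.05. FLCN, which with its partners controls TFE3 at the lysosome, went from 52.6 ± 1.91 to 32.1 ± 5.56 CPM (log2 fold change -0.71 ± 0.13, edgeR adjusted p = 0.00446). CTSD, a lysosomal protease, went from 222 ± 23.3 to 151 ± 15.1 CPM (-0.56 ± 0.11, edgeR adjusted p = 0.00803). Both calls held when any single library was left out. In the same fit RRAGD, a GTPase gene in this list, was at 0.42 ± 0.15 and did not pass (edgeR adjusted p = 0.077). It too is named after its value was seen.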

How the data were processed

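RNA of 6 T24 libraries was sequenced. The submitters' processing notes name HISAT2 (version 2.0.4) and the build GRCh38. For the counting tool, annotation and strandedness nothing is given in the sources used here. The values that the authors deposited are raw counts, whole numbers for each gene symbol. Library totals and the limits they set are given with the results.

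Genes kept by filterByExpr were scaled by TMM and tested with edgeR 4.0.16 (quasi-likelihood F test, robust; limma 3.58.1, R 4.3.3) for the effect of the hairpin, and p-values were adjusted by Benjamini-Hochberg over the 13896 genes tested. The threshold was 0.05. An SE is the log2 fold change divided by the square root of F. Lengths, coordinates and transcript GC content came from GENCODE release 29. The procedures were tested on simulated data. Results were recomputed with DESeq2 1.42.0, RLE scaling, 2 further filters on low counts, a replicate block, a threshold of 0.01, each library left out and knockdown replicate 2 alone. Removal of GC content and length trends (loess offsets per library) was added after seeing the data.

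The members and lists were chosen with earlier results of these data known. All members are named. From each further list, up to 4 genes past the threshold are named by size, with both directions where present, and other genes only where the text says so. For control of mTORC1 and AMPK, all 7 genes past the threshold are named, so 3 were added after their values were seen. Replicates of a group differed beyond sampling noise (chi-square divided by its degrees of freedom, 2.63 to 34.7). No set test was run.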

Additional observations from a re-analysis of the deposited data

How the results depend on the processing

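The main fit called 2402 genes, 4 members higher and 2 lower, and 8 further pathway genes higher and 11 lower. With the replicate block these counts were 5062, 6, 6, 21 and 19. With knockdown replicate 2 alone they were 4432, 6, 6, 20 and 17. Without GC content and length trends they were 3747, 6, 7, 12 and 18, and calls over all genes split into 1873 higher and 1874 lower, where the main fit had 1349 and 1053. At a threshold of 0.01 the counts were 749 (5.39% of all genes tested), 2, 0, 3 and 5, and GABARAPL1 and MITF were the 2 members left. Leaving out 1 library gave 986 to 2645 genes, or 6.92% to 18.6% of those tested. Those fits called 2 to 6 members higher and 0 to 4 lower, and 3 to 10 pathway genes higher and 6 to 13 lower. The 0 came without control replicate 3. MTHFD2 lay between -2.62 and -2.39 in those fits. RLE scaling, DESeq2 and both other filters kept the calls of all 6 members. None of the results named changed direction while called. Values of 10 members that did not pass changed sign in at least 1 setting. The replicate numbers were not taken as pairs: deviations of same-numbered libraries correlated at -0.02, 0.30 and 0.35, and control replicate 1 correlated better with knockdown replicate 2 (0.16). The block did not end any call of a member, but that fit called 36.4% of all genes against 17.3% in the main fit. A call kept in it therefore says little. ULK2 had too few counts to test, and ATG16L1, TFEB and MAP1LC3A rest on under 100 counts per library.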

Other observations

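Within the ATG8 genes, the share of GABARAPL1 in the summed level per length was 8.78%, 9.50% and 7.74% in the control libraries and 16.5%, 19.1% and 14.7% in the knockdown libraries. The share of MAP1LC3B was 24.7 ± 1.94% against 19.7 ± 1.36%. Neither gene's groups overlapped. The summed level of the 5 genes was 182 ± 19.7 RPKM in the controls and 188 ± 29.3 RPKM after knockdown (SD, n = 3 each), a difference smaller than the spread. These shares were computed after the values were seen and carry no test.

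Among the 5 cargo receptors, SQSTM1 made up 49.0 ± 1.62% of the summed level per length in the controls and 39.8 ± 2.31% after knockdown, and NBR1 12.8 ± 1.07% and 18.7 ± 2.00%. The shares of TAX1BP1 (8.03 ± 0.643% and 9.83 ± 0.585%) and CALCOCO2 (7.74 ± 0.324% and 9.67 ± 0.540%) were also higher after knockdown without overlap, and that of OPTN was 22.4 ± 0.494% and 22.0 ± 0.303%. The summed level of the 5 receptors was 137 ± 6.28 RPKM in the controls and 121 ± 1.63 RPKM after knockdown. Shares are relative, so a fall of SQSTM1, the largest part of the sum, raises the shares of the other receptors. The shares carry no test. The ratio of SQSTM1 to NBR1 in CPM was 3.25, 3.25 and 3.98 in the control libraries and 2.26, 1.64 and 2.00 in the knockdown libraries. SQSTM1 and NBR1 are the receptors called lower and higher in these same libraries, so the ratio restates those calls and carries no test. The lowest ratio was in knockdown replicate 2, the knockdown library with the lowest summed fibroblast markers, and a link was not tested.

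VPS11, a HOPS subunit in the fusion list, gave 2, 5 and 22 counts in the controls and 1, 116 and 16 after knockdown. Its log2 fold change of 2.11 ± 1.29 rests on knockdown replicate 2 and did not pass (edgeR adjusted p = 0.294). NEU1, a lysosomal sialidase in the list of factor targets, was listed at 0 in all 6 libraries. The assignment of reads to genes is unknown, so this 0 does not show that NEU1 was not expressed.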
